A study of Mus musculus with 6 samples.

Results

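The laminin, basement membrane and integrin genes were compared between Klf5-deleted and control fetal mouse intestines, at embryonic day E14.5 and thus ahead of villus formation. Klf5 is a transcription factor gene. The group was defined by gene symbol alone: laminin chains, nidogens and integrin subunits with numbered symbols or v, plus Hspg2, Agrn, Dag1 and Fn1. It held 37 of the 19938 genes measured: 10 laminin chains, 5 genes of nidogens, proteoglycans and fibronectin, dystroglycan, 13 integrin alpha and 8 integrin beta subunits. Each was read by 1 row of the table. The Klf5-deleted group had the genotype Klf5D/D, whose label names no Cre allele. The control group was Klf5wt/wt and carried the ShhEGFP/Cre allele, an allele at the locus of Shh, a gene that the gut epithelium expresses. Both groups were of a mixed strain, part C57Bl/6, and each held 3 arrays. An array was hybridised with RNA from a pool of 2 whole intestinal segments cut about 1.5 cm anterior to the cecum, so epithelium, mesenchyme, muscle, vessels and nerves were measured together.

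A basement membrane is the thin sheet of matrix under an epithelium and around muscle, vessels and nerves. Laminins, each a trimer of an alpha, a beta and a gamma chain, polymerise into one network, type IV collagen forms a second, and nidogens, perlecan (Hspg2) and agrin link them. Cells hold on to the sheet through integrins, each a pair of an alpha and a beta subunit, and through dystroglycan. In the fetal gut the epithelium and the mesenchyme both supply parts of the sheet on which villi form.

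Values are log2 signals made by the authors with RMA, and a difference is the mean of the Klf5-deleted arrays minus that of the controls. A gene passed when limma's p, adjusted by Benjamini-Hochberg over all 19938 genes, was below 0.05. Klf5 itself had signals of 10.24, 10.49 and 10.34 in the deleted pools, against 11.55, 11.74 and 11.77 in control pools, and fell to 39.8% of the control level (difference −1.33, SE 0.08, adjusted p = 9.62e-05). Klf5 signal thus remained in these whole-tissue pools, and "without Klf5" below is only a name for the deleted group. Arrays correlated at 0.994 to 0.997 within groups and at 0.989 to 0.993 between them, across rows, which are not independent replicates. All 24 measured pan-epithelial markers fell (median difference −0.92). Their summed linear signal was 25419 to 30272 without Klf5, against 55729 to 57769 in control pools, and the dimmest of them, Marveld3, had a mean log2 signal of 7.34. RMA signals have no true 0, so the absence of a marker cannot be read from them. In whole tissue, fewer cells of a type and less RNA per cell cannot be told apart. The pools also differed in sex-linked genes: Xist had a mean of 6.23 without Klf5, against 12.23 in control pools (limma, adjusted p = 8.14e-06). The means of Y-linked Eif2s3y (10.25 against 7.85), Kdm5d (9.8 against 8.09) and Uty (9.89 against 7.5) were higher but did not pass. A male share from these Y-linked genes was scaled from the lowest array to the mean of the deleted pools. Its ends are thus fixed, and it is not a count of males. This share was 95 to 103% in the Klf5-deleted pools, against 0, 47.1 and 40.8% in control replicates 1 to 3.

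Of the 37 members, 6 fell and 5 rose. The falls were those of the integrin beta subunit genes Itgb6, Itgb4, Itgb7 and Itgb2, the collagen receptor subunit gene Itga2 and the laminin chain gene Lamb3. The rises were those of the integrin alpha subunit genes Itga4, Itga8 and Itgav, the laminin chain gene Lama2 and fibronectin (Fn1). Over all genes 17.5% passed, 8.58% lower and 8.95% higher. The members' median difference was 0.04, beside 0.02 over all genes, and their differences ran from −0.76 to 0.64, so none reached 2-fold. The groups did not overlap for 21 members, 9 lower and 12 higher, beside 36.0% of all genes (15.9% lower and 20.1% higher). The calls of Itgb6, Itgb4, Itgb7, Itga4, Itga8 and Fn1 were kept on leaving out any one of the 6 arrays. The number lower was 3 without Klf5-deleted replicate 1, without control replicate 1 or without control replicate 3. The number higher was 3 without Klf5-deleted replicate 3, without control replicate 1 or without control replicate 3.

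**Figure D1:**
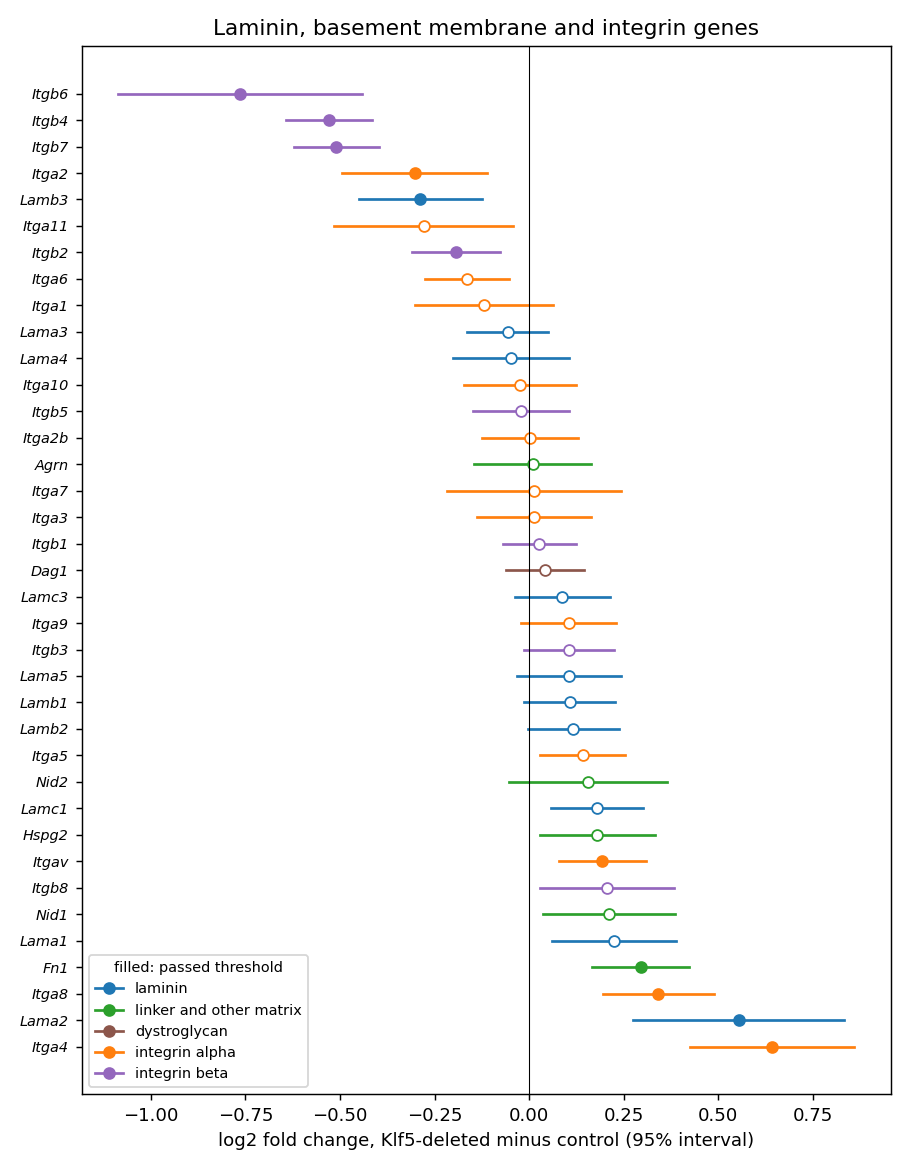
Difference of each of the 37 members (x axis: log2 signal, Klf5-deleted minus control; bars: 95% interval from limma; y axis: genes in order of the difference; colours: protein class; n = 3 arrays per group). Filled points passed the threshold: 4 of the 6 lower ones are integrin beta subunits, and 3 of the 5 higher ones are integrin alpha subunits.

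With each pool's male share added to the fit, 0 of the 37 members passed limma's test, beside 0.416% of all genes. At an unadjusted p below 0.05, 5 members differed, as did 2882 of all 19938 genes: Itga7 (0.59), Itgb7 (−0.51), Itgb4 (−0.50), Itga8 (0.47) and Itgav (0.32). The standard errors of the members were 2.64 times as large in that fit (median). Of all 37 members, 30 kept their sign. Lamc1 (0.18 to −0.04), Hspg2 (0.18 to −0.09) and Lamb1 (0.11 to −0.02), which had not passed, were among those that changed it. All 11 genes past the threshold without the covariate kept their sign, and their differences were 0.70 times as large (median). Among these 11, the differences that moved furthest in proportion were those of Lamb3 (−0.29 to −0.10), Lama2 (0.55 to 0.25), Fn1 (0.29 to 0.16), Itgb2 (−0.19 to −0.11), Itgav (0.19 to 0.32) and Itga4 (0.64 to 0.39). Sex and the Klf5 genotype were therefore only partly separable in these pools.

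Laminins are the polymer that starts a basement membrane. Of the 10 chains measured, Lamb3 fell, Lama2 rose and 8 did not pass, with a median difference of 0.11. These counts are near the shares over all genes, 8.58% lower and 8.95% higher. Lamb3 encodes the beta chain of the laminin that anchors hemidesmosomes, together with the alpha chain LAMA3. It gave 8.0, 8.10 and 7.96 on the Klf5-deleted side and 8.38, 8.18 and 8.36 on the control side. Every Klf5-deleted array was below every control, by a narrow gap to control replicate 2. The difference was −0.29 (SE 0.07, n = 3 per group, adjusted p = 0.0284), or 81.9% of control. Of the 6 fits that leave out an array, 4 ended this call: those lacking Klf5-deleted replicate 1 (−0.28, adjusted p = 0.0687), Klf5-deleted replicate 3 (−0.26, adjusted p = 0.0936), control replicate 1 (−0.25, adjusted p = 0.0851) and control replicate 3 (−0.26, adjusted p = 0.0971). Its alpha partner Lama3 was at −0.06 (95% interval −0.16 to 0.05), at a dim mean log2 signal of 7.58.

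Lama2 encodes the alpha chain of merosin, the laminin known from muscle and nerve sheaths. It signalled 9.30, 8.87 and 9.16 without Klf5 and 8.44, 8.73 and 8.51 in the control pools. The groups did not overlap, and Klf5-deleted replicate 2 lay close to control replicate 2. Lama2 rose 1.47-fold (difference 0.55, SE 0.12, adjusted p = 0.0187). Dropping Klf5-deleted replicate 3 (0.53, adjusted p = 0.0628), control replicate 1 (0.49, adjusted p = 0.0620) or control replicate 3 (0.53, adjusted p = 0.0700) ended the call. The chains that pair with LAMA2 in merosin, Lamb1 (0.11, 95% interval −0.01 to 0.23) and Lamc1 (0.18, 95% interval 0.06 to 0.30, adjusted p = 0.0537), did not pass. Lamc1, the gamma chain gene of most laminins, had signals of 11.79, 11.78 and 11.77 in the deleted pools, against 11.51, 11.66 and 11.64 in control pools, without overlap. With the male share as covariate Lamc1 was at −0.04 (SE 0.11) and Lamb1 at −0.02 (SE 0.13).

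The remaining chains are those of laminins found under embryonic and adult epithelia and around vessels. Lama1, the alpha chain gene of the first embryonic basement membranes, gave 9.13, 9.03 and 9.23 on the Klf5-deleted side and 8.82, 8.89 and 9.01 on the control side. The groups were apart by a small margin, and Lama1 did not pass (0.22, adjusted p = 0.0691). Lama5, the main alpha chain gene of gut epithelium in the adult, was at 0.11 (95% interval −0.03 to 0.24). Lama4, a chain of vessel laminins, was at −0.05 (95% interval −0.20 to 0.10). Lamb2 and Lamc3 were at 0.12 and 0.09, and neither passed. Thus the intervals of the 8 chains that did not pass stayed between −0.20 and 0.39.

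KLF proteins are known to bind GC-rich and CACCC-type DNA. RefSeq promoters (build GRCm38.p6, from 250 bases before the start of a gene to 50 after it) were matched for 25 of the 37 members, as 30 sequences. The motif CCNCNCCC, searched on both strands with overlapping matches counted, was in 80.0% of these 30, and in 49.5% of all 32851 promoters of that length. The GC box GGGCGG, which can overlap it, was in 56.7% and 35.7%. Members had a median GC content of 60.0%, beside 52.7% over all promoters. The members that fell had 6 promoters from 4 genes, and 4 of these promoters held CCNCNCCC, while neither Itgb6 promoter did. The members that rose had 4 promoters from 4 genes, and 2 of these held it. Those that did not pass had 20 promoters from 17 genes, and 18 of these held it. The called genes Itgb4, Itgb2 and Fn1 had no matched promoter, and some genes counted with 2 promoters. A match is a description of the letters and not a bound site. The promoters of the 2 laminin genes that passed are shown because they changed in opposite directions, with matches to CCNCNCCC on either strand in capitals: Lamb3 (chr1:193301744-193302043, plus strand), the upstream of its 2 entries, with 7 matches, of which several overlap in one run of C, and Lama2 (chr10:27616893-27617192, minus strand) with 1.
Lamb3: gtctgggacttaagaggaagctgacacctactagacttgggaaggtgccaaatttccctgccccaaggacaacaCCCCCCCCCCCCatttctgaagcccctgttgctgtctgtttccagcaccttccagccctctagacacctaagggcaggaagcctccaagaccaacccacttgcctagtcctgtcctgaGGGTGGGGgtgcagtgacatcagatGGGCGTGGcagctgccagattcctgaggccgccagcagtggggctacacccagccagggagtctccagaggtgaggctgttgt
Lama2: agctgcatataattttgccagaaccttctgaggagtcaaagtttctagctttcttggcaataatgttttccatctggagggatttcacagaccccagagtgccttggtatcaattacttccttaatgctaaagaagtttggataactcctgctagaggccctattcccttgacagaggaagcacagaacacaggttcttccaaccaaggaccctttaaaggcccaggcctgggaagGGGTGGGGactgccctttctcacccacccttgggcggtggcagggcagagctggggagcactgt

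Of the 5 genes of linkers and fibronectin, Fn1 rose and 4 did not pass, with a median difference of 0.18. Of all genes, 8.95% passed as higher. Fn1, the matrix glycoprotein that many integrins bind by its RGD site, signalled 12.92, 12.77 and 12.80 without Klf5 and 12.48, 12.56 and 12.55 in the control pools. The groups did not overlap, and Fn1 rose 1.23-fold (difference 0.29, SE 0.05, adjusted p = 0.0106). Nid1 was at 0.21 (adjusted p = 0.0984) and Nid2 at 0.16 (adjusted p = 0.302). Nid1 read 11.77, 11.49 and 11.57 against 11.35, 11.45 and 11.40, with Klf5-deleted replicate 1 the highest for both nidogens. Without that array Nid1 was at 0.13 (adjusted p = 0.171) and Nid2 at 0.06 (adjusted p = 0.598). Perlecan (Hspg2) was at 0.18 (adjusted p = 0.105) with groups that did not overlap, and agrin (Agrn) at 0.01 (95% interval −0.15 to 0.16). Dystroglycan (Dag1), the laminin receptor outside the integrin family, was at 0.04 (95% interval −0.06 to 0.14).

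Among the subunits of laminin receptors, Itgb4 fell and its alpha partner Itga6 did not pass. Itgb4 encodes the integrin subunit that pairs with ITGA6 in hemidesmosomes and ties laminin to keratin filaments. It had signals of 8.40, 8.27 and 8.31 in the deleted pools, against 8.87, 8.86 and 8.83 in control pools. The groups were far apart for their spread, and Itgb4 fell by 0.53 (SE 0.05, adjusted p = 0.000488), to 69.3% of control. Its partner Itga6 read 11.01, 11.03 and 10.94 against 11.16, 11.12 and 11.20. The groups were apart, but Itga6 did not pass (−0.16, 95% interval −0.28 to −0.05, adjusted p = 0.0538). Itga3 (0.01, 95% interval −0.14 to 0.16), which pairs with ITGB1 as another epithelial laminin receptor, and Itga7 (0.01), the muscle laminin receptor subunit gene, did not pass. Itgb1, the common partner of most alpha subunits, was at 0.03 (95% interval −0.07 to 0.12) and read between 12.11 and 12.17 in all 6 arrays. The pan-epithelial markers fell over the same arrays with a median of −0.92. Their part in the falls of Itgb4 and Lamb3, and of Itga2 and Itgb6 below, was not tested.

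Among collagen receptors, Itga2 fell. This subunit pairs with ITGB1 and is known from epithelia and platelets. It gave 10.07, 10.02 and 10.33 on the Klf5-deleted side and 10.46, 10.47 and 10.41 on the control side, with Klf5-deleted replicate 3 just under the lowest control. Itga2 fell by 0.30 (SE 0.08, adjusted p = 0.0431). Without Klf5-deleted replicate 1 or 2, or without any one of control replicates 1 to 3, its call was lost (−0.32 to −0.24, adjusted p = 0.0964 to 0.128). The platelet markers Gp9 and Pf4 were at 0.16 and 0.11 and did not pass. The mesenchymal subunit gene Itga11 was at −0.28 (adjusted p = 0.106), and passed without Klf5-deleted replicate 3 (−0.38, adjusted p = 0.0388) but in none of the 5 fits that leave out another array (−0.30 to −0.16, adjusted p = 0.145 to 0.233). Itga1 and Itga10 were at −0.12 and −0.02.

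Receptors that read RGD sites, as in fibronectin, gave falls and rises: Itgb6 fell, and Itgav and Itga8 rose. Itgb6, an epithelial subunit that pairs with ITGAV, binds fibronectin and activates latent TGF-beta, had the largest difference of the 37 genes. It signalled 8.38, 8.80 and 8.95 without Klf5 and 9.43, 9.42 and 9.58 in the control pools. The Klf5-deleted arrays were spread widely and all lay below the controls. Itgb6 fell by 0.76 (SE 0.14, adjusted p = 0.00919), to 58.9% of control. Itgav, its alpha partner, read 11.54, 11.54 and 11.63 against 11.42, 11.38 and 11.33, and rose by 0.19 (SE 0.05, adjusted p = 0.0350). The Itgav call was lost on leaving out any one of the 6 arrays (0.16 to 0.22, adjusted p = 0.0520 to 0.114) and on centring the arrays on their medians (0.17, adjusted p = 0.0559). The other beta partners of ITGAV did not pass: Itgb8 was at 0.21 (adjusted p = 0.111), Itgb3 at 0.11 (adjusted p = 0.217) and Itgb5 at −0.02 (95% interval −0.15 to 0.11).

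Itga8 encodes a mesenchymal subunit that pairs with ITGB1 and binds nephronectin and fibronectin. It had signals of 11.54, 11.36 and 11.44 in the deleted pools, against 11.17, 11.12 and 11.03 in control pools, without overlap. Itga8 rose 1.27-fold (difference 0.34, SE 0.06, adjusted p = 0.0100). The gene of its ligand nephronectin, Npnt, a gene picked once its values were known, also rose (0.33, SE 0.09, adjusted p = 0.0381). Only the fit without Klf5-deleted replicate 2 kept the Npnt call among those leaving out 1 array; in the other 5 it was lost (0.25 to 0.34, adjusted p = 0.0739 to 0.115). Itga5, the classical fibronectin receptor subunit, read 11.69, 11.61 and 11.65 against 11.47, 11.5 and 11.56, apart but not past the threshold (0.14, adjusted p = 0.0872). Itga2b, the platelet subunit, was at 0.00 (95% interval −0.12 to 0.13).

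**Figure D2:**
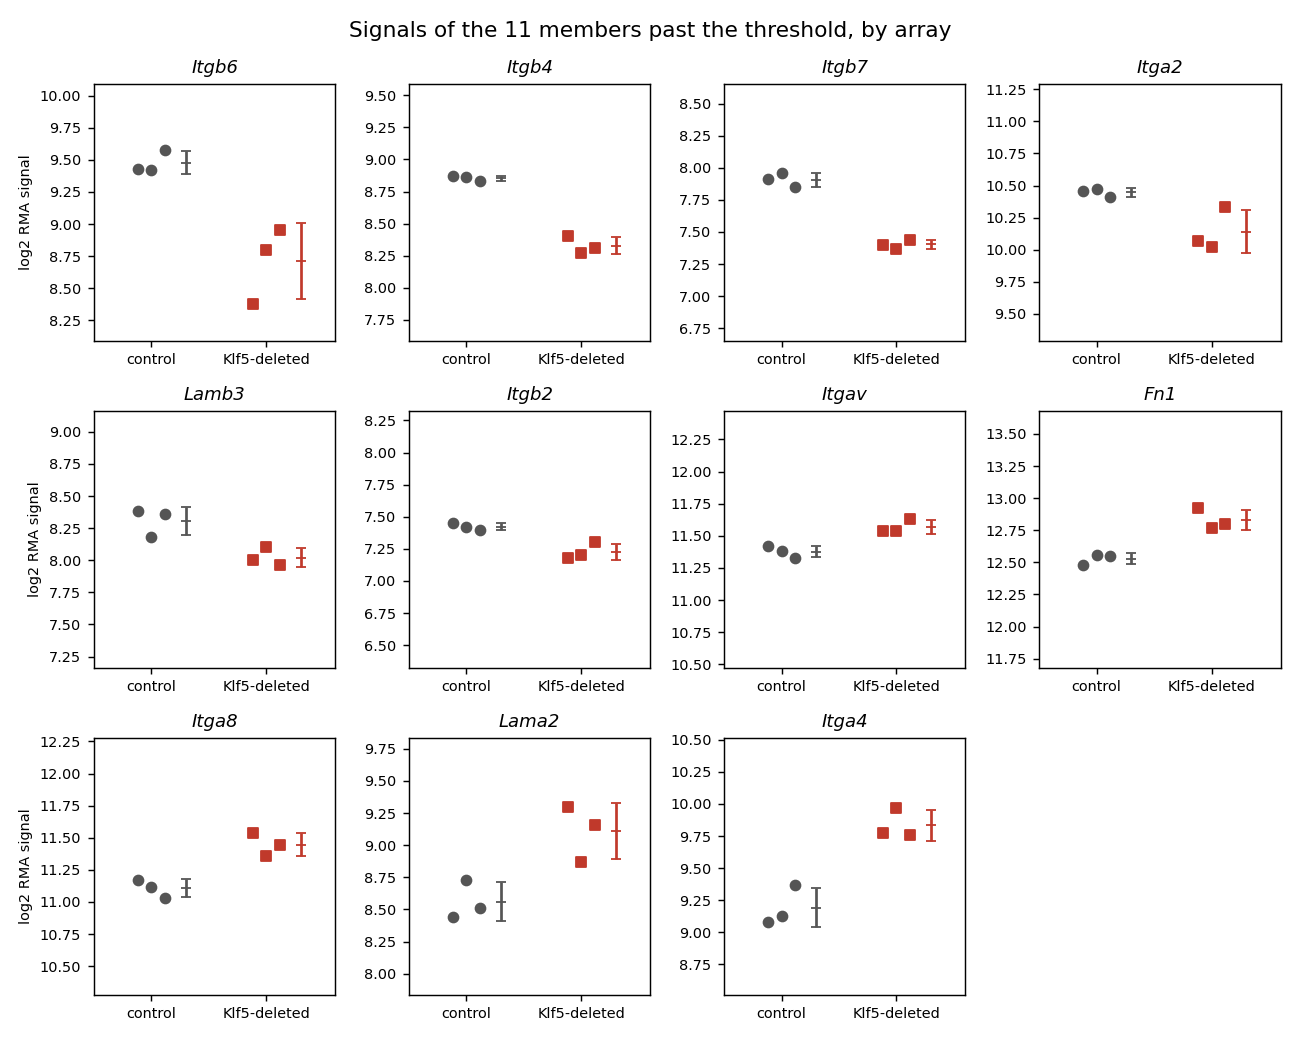
Log2 RMA signal (y axis, spanning 2 log2 units in every panel) of the 11 members past the threshold in the 3 control (circles) and 3 Klf5-deleted (squares) arrays, with mean and SD beside the points. The groups do not overlap in any panel, and the spread is widest for Itgb6 in the Klf5-deleted arrays (8.38 to 8.95).

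Subunits best known from cell traffic moved in both directions. Itga4 encodes a subunit that pairs with ITGB1 or ITGB7 and binds fibronectin and VCAM1, and is known from leukocytes and from embryonic mesenchyme and mesothelium. It gave 9.77, 9.97 and 9.76 on the Klf5-deleted side and 9.08, 9.13 and 9.37 on the control side. All Klf5-deleted arrays were above all controls, and Itga4 rose 1.56-fold (difference 0.64, SE 0.09, adjusted p = 0.00382), the largest rise of the 37. Itgb7, its partner in gut-homing lymphocytes, read 7.40, 7.37 and 7.44 against 7.91, 7.96 and 7.85. Itgb7 fell by 0.51 (SE 0.05, adjusted p = 0.000557), to 70.2% of control, with little spread in either group. Itgb2, the leukocyte beta subunit, read 7.18, 7.20 and 7.30 against 7.45, 7.42 and 7.40 and fell by 0.19 (SE 0.05, adjusted p = 0.0353). The Itgb2 call was lost without Klf5-deleted replicate 1 or 2, or without any one of control replicates 1 to 3 (−0.21 to −0.17, adjusted p = 0.0770 to 0.104), and with an intensity trend in the variance (adjusted p = 0.0755). Itga9, a relative of Itga4, was at 0.10 (adjusted p = 0.243).

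Over all genes 8.58% were lower and 8.95% higher by limma's test. Of 14 measured leukocyte and platelet markers, 2 fell (Lyz2 and Itgam, by 0.50 and 0.37) and 0 rose by that test. Their median difference was 0.00, and their summed linear signal was 5103 to 5613 without Klf5, against 5123 to 5947 in control pools. The pan-leukocyte gene Ptprc was at −0.14 (adjusted p = 0.277), and the part of these cells in the falls of Itgb2 and Itgb7 was not tested. Signals of Itgb2, Itgb4, Itgb7 and Lamb3 lay below the median over genes, a range in which RMA is known to compress differences. Itgb4 was only just below it (percentile 49.3 over genes). Of the members that did not pass, Lama3, Itga7, Itga10, Itga2b and Lamc3 also lay below it (percentiles 35.8, 33.4, 38.3, 41.4 and 43.3). The same limit holds for their small differences. The promoters of Itga4 (chr2:79255176-79255475, plus strand), with 5 matches to CCNCNCCC in capitals, and Itgb7 (chr15:102231886-102232185, minus strand), with 2, are shown because these 2 genes encode one receptor and changed in opposite directions.
Itga4: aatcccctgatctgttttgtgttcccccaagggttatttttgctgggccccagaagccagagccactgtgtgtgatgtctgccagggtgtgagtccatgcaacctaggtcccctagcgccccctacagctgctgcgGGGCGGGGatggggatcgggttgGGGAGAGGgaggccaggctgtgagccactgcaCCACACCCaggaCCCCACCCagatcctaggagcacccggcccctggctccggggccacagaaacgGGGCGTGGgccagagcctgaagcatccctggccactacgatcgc
Itgb7: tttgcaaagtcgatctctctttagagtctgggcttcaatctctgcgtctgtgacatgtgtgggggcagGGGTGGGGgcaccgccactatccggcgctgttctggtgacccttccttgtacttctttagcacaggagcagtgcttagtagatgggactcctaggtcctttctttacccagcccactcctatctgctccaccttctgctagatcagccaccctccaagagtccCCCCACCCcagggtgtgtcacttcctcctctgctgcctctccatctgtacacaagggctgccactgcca

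**Figure D3:**
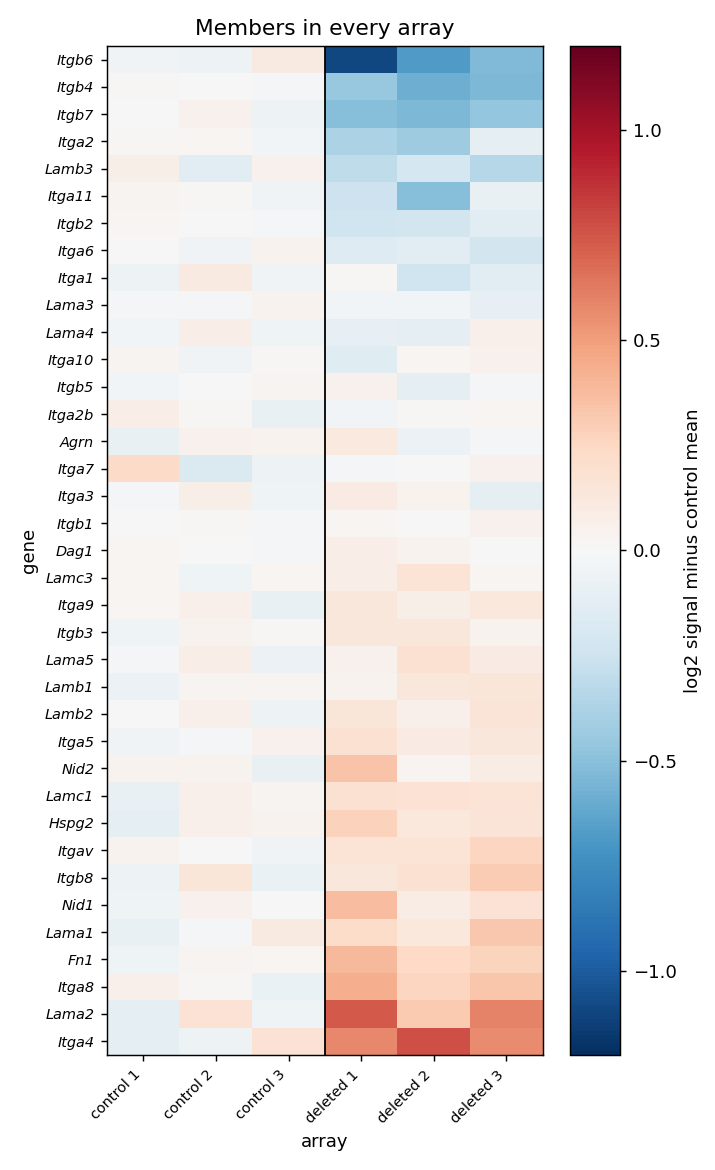
Log2 signal of each of the 37 members (rows, in order of the difference) in each of the 6 arrays (columns) minus the mean of the 3 controls; blue is lower and red higher, on a scale of −1.2 to 1.2. The Klf5-deleted columns are blue for the top rows (Itgb6 to Itga6) and red for the lowest rows (Fn1, Itga8, Lama2 and Itga4), and Klf5-deleted replicate 1 has the deepest value of Itgb6.

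The members were set beside 91 measured genes of 7 lists of matrix and adhesion partners, of which 5 fell and 19 rose, with a median difference of 0.08. Over all genes, the background for each list, 8.58% were lower and 8.95% higher, 17.5% in all. The number that rose was 11 without control replicate 1, 9 without control replicate 2 and 12 without control replicate 3, and 12 with arrays centred on their medians. With the male share as covariate, 0 rose and Lad1 fell (−1.87, adjusted p = 0.00705). Of the collagen IV genes, the second network of the sheet, 0 of 6 passed limma's test, and their differences lay between 0.01 and 0.15. None of the 6 had groups that did not overlap, beside 36.0% of all genes. Only 2 of the 6 lay above the median level over genes, so dim signals limit this reading.

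Of 19 other basement membrane genes, 9 rose and 2 fell, with a median of 0.12. Ladinin (Lad1), an anchoring filament protein of epithelia, fell by 1.50 (SE 0.08, adjusted p = 4.24e-05), a larger fall than that of any member. Frem2, part of the Fraser complex that holds epithelium to mesenchyme in the embryo, rose by 0.62 (SE 0.05, adjusted p = 0.000321). The calcium-binding matrix gene Smoc1 rose by 0.53 (SE 0.08, adjusted p = 0.00353) and hemicentin (Hmcn1) by 0.62 (SE 0.09, adjusted p = 0.00398). The remaining genes of this paragraph were picked once their values were known. The other Fraser complex genes, Fras1 and Frem1, rose by 0.36 (SE 0.05, adjusted p = 0.00435) and 0.28 (SE 0.08, adjusted p = 0.0438). The other fall was that of Tinagl1, a basement membrane glycoprotein gene (−0.57, SE 0.09, adjusted p = 0.00469). Leaving out Klf5-deleted replicate 2 kept the Frem1 call, and leaving out any other array ended it (0.24 to 0.30, adjusted p = 0.101 to 0.134). The calls of the other 6 genes named here were kept on leaving out any one array.

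Inside the cell, talins and kindlins switch integrins on, and the list of 23 adaptors gave 1 fall and 2 rises. Kindlin-1 (Fermt1), the kindlin of epithelia, fell by 0.99 (SE 0.08, adjusted p = 0.000300), while kindlin-2 (Fermt2), that of mesenchyme and muscle, rose by 0.19 (SE 0.04, adjusted p = 0.0210). Leaving out control replicate 3 kept the Fermt2 call, and leaving out any other array ended it (0.18 to 0.20, adjusted p = 0.0528 to 0.0775). Filamin A (Flna), an actin crosslinker that binds integrin tails, rose by 0.21 (SE 0.04, adjusted p = 0.0175). Without Klf5-deleted replicate 3 (0.20, adjusted p = 0.0611), control replicate 1 (0.18, adjusted p = 0.0543) or control replicate 2 (0.22, adjusted p = 0.0569) its call was lost. Zyxin (Zyx), a focal adhesion protein gene, was at 0.17 (adjusted p = 0.0641). Of the 4 hemidesmosome partners, 0 passed limma's test: Dst was at 0.24 (adjusted p = 0.0691), Col17a1 at 0.15, Plec at −0.14 and Cd151 at 0.00.

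Of 17 genes of the dystroglycan complex and its sugar transferases, 4 rose and 1 fell. Dystrobrevin alpha (Dtna) rose by 0.58 (SE 0.08, adjusted p = 0.00372) and utrophin (Utrn), which links dystroglycan to actin, by 0.24 (SE 0.05, adjusted p = 0.0144), and both calls were kept on leaving out any one array. The sarcoglycan genes Sgce and Sgcb rose by 0.31 (adjusted p = 0.0136) and 0.28 (adjusted p = 0.0159). Leaving out control replicate 3 ended the Sgce call (0.29, adjusted p = 0.0536). Leaving out control replicate 2 (0.28, adjusted p = 0.0563) or control replicate 3 (0.24, adjusted p = 0.0559) ended the Sgcb call. The fall was that of Pomt1, a mannosyltransferase gene (−0.16, adjusted p = 0.0314), picked once its values were known, whose call ended on leaving out any one array (−0.17 to −0.16, adjusted p = 0.0638 to 0.104). Of 7 other laminin receptors, syndecan-4 (Sdc4), a proteoglycan co-receptor of focal adhesions, fell by 0.40 (SE 0.06, adjusted p = 0.00492) and 0 rose. Sdc2, Sdc1 and Mcam were at 0.17, −0.09 and −0.06 and did not pass.

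Of 15 other matrix ligands of integrins, 4 rose and 0 fell by limma's test, with a median of 0.15. Ltbp1, which stores latent TGF-beta in the matrix, rose by 0.45 (SE 0.04, adjusted p = 0.000674), also on leaving out any one array. Ccn2 (connective tissue growth factor) rose by 0.40 (adjusted p = 0.0414), periostin (Postn) by 0.19 (adjusted p = 0.0350) and Emilin1, an elastic fibre gene, by 0.15 (adjusted p = 0.0496). Leaving out Klf5-deleted replicate 3 kept the Ccn2 call, and leaving out any other array ended it (0.31 to 0.45, adjusted p = 0.0685 to 0.120). For Postn, leaving out Klf5-deleted replicate 2 kept the call and leaving out any other array ended it (0.17 to 0.22, adjusted p = 0.0633 to 0.111), and the Emilin1 call was lost without any one of the 6 (0.13 to 0.16, adjusted p = 0.0803 to 0.159).

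Markers of other tissue layers were read over the same arrays. Over all genes 8.58% were lower and 8.95% higher by limma's test, with a median difference of 0.02. Of 9 mesothelial markers 7 rose and 1 fell (median 0.64), with a summed linear signal of 8773 to 11572 without Klf5, against 5510 to 7298 in control pools. Of 14 fibroblast and mesenchyme markers 5 rose and 0 fell by limma's test (median 0.20; 53936 to 57314 against 48500 to 50187), and of 11 smooth muscle markers 3 rose and 0 fell (median 0.02; 50421 to 53455 against 48719 to 51889). Of 12 endothelial markers 1 rose (median 0.13; 16395 to 20096 against 16489 to 17214), and of 10 markers of enteric neurons and glia 2 rose (median 0.18; 22039 to 24639 against 20036 to 20766). The part of these layers in the rises of Itga4, Itga8, Itgav, Lama2 and Fn1 was not tested.

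**Figure D4:**
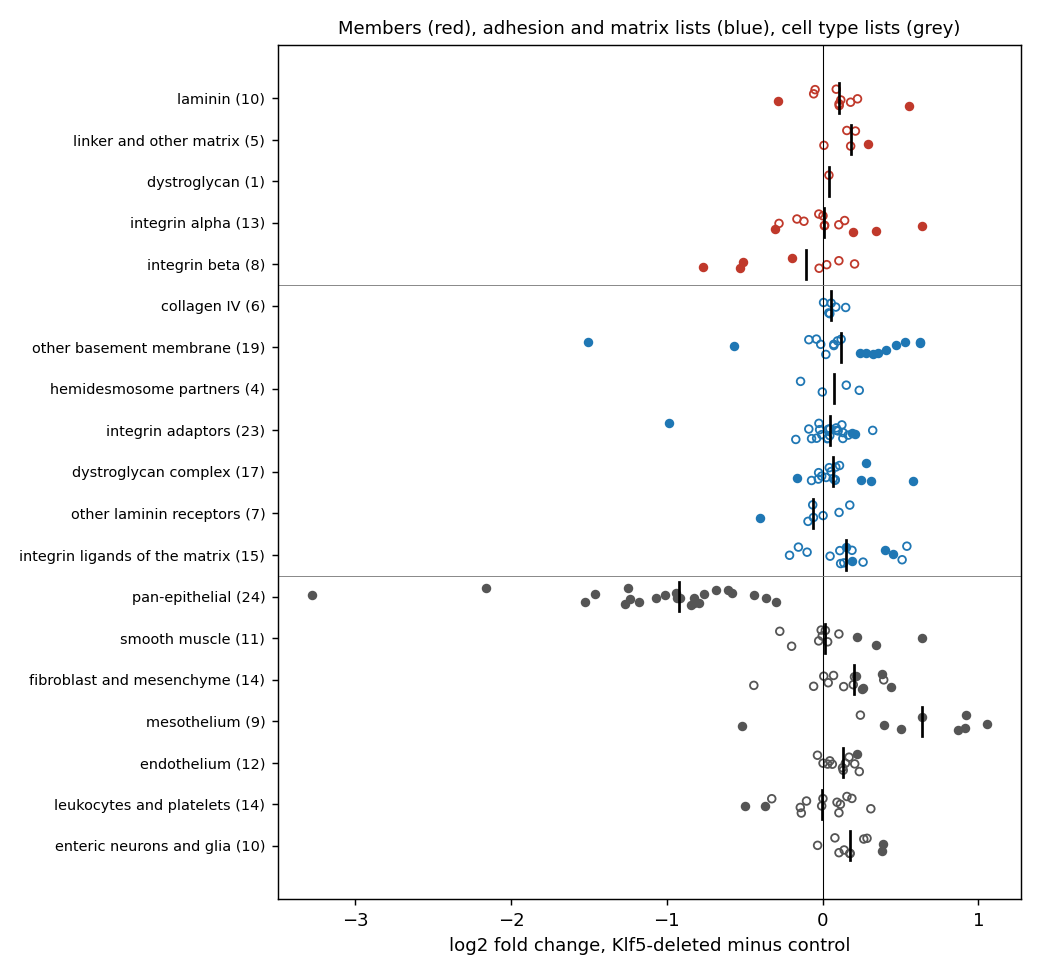
Differences (x axis: log2 signal, Klf5-deleted minus control) of the members by class (red), of 7 lists of matrix and adhesion partners (blue) and of 7 cell type lists (grey), with the number of measured genes in brackets; filled points passed the threshold and black bars are medians. The members lie between −0.76 and 0.64, while all 24 pan-epithelial markers lie below 0 and the mesothelial median is 0.64.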

How the data were processed

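RNA of 6 pools of fetal mouse gut was read on Affymetrix Mouse Gene ST arrays. Sample titles gave the group and number of each pool. The authors deposited log2 signals between 3.51 and 14.3. Per the submitters' processing notes, they come from RMA as run in Affymetrix Expression Console 1.1. As a method, RMA corrects background, equalises the distributions of the arrays and summarises the probes of a transcript, so a shift shared by most genes is lost and dim genes change less than in the tissue. The build behind the array annotation was not given in the sources used here. Arrays have no read depth, and their number limits the precision. Of 35557 rows, 21789 had 1 gene symbol in the platform annotation, 1621 several and 12147 none. Symbols were updated by gene ID to RefSeq of GRCm38.p6 (21698 rows matched), which changed no member, and the brightest row of each of 19938 genes was kept.

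The comparison used lmFit and eBayes of limma 3.58.1 (R 4.3.3) over all genes, with no filter on level, and the fit was tested on simulated data. No source used here says whether pools shared a litter, so p-values cover only the spread among these pools. Named were all members past the threshold with their partners, and up to 4 genes of each list with the smallest p. Of 101 partner genes listed, 91 were measured. Members, lists and alternatives were chosen with earlier results of these data known. Same-numbered samples did not deviate together (correlations −0.14, −0.27 and −0.03), so numbers were not taken as pairs. The male share was computed from Eif2s3y, Kdm5d and Uty, scaled from 0% (lowest array) to 100% (mean of the deleted pools). Alternatives were each array left out, the replicate block, 2 other normalizations, the lowest 50% of genes left out, a variance trend, the mean of all rows of a gene, the male share as covariate and a threshold of 0.1.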

Additional observations from a re-analysis of the deposited data

How the results depend on the processing

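With 3 arrays per group, small differences decide many calls. On leaving out each array in turn, 3 to 6 members were lower and 3 to 4 higher, 2000 (without control replicate 2) to 2757 genes passed over all, and 4 partner genes were lower and 9 to 18 higher. With the replicate number as a block, 3 members were lower and 2 higher, 2008 genes passed over all and 10 partner genes were higher. With the male share as covariate, 0 members were lower and 0 higher by limma, 83 genes passed over all, and 1 partner gene was lower and 0 higher. With the lowest 50% of genes left out, 3599 of 9969 genes passed, 3 members were lower and 8 higher: the dim Itgb4, Itgb7, Lamb3 and Itgb2 were no longer tested, and Itga6, Itga5, Lamc1 and Lama1 passed. With a variance trend 8 members were higher, with a threshold of 0.1 9 members were higher, and with arrays centred on their medians 12 partner genes were higher. That centring also turned the split of all calls from 1785 higher and 1711 lower to 1216 and 1767. No member past the threshold changed its sign in these fits. Dim signals limit Itgb2, Itgb4, Itgb7 and Lamb3, and also Lama3, Itga7, Itga10, Itga2b and Lamc3, which did not pass.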

Other observations

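Integrin partners and ligands outside the symbol rule were read after the member values were seen. Of the leukocyte alpha subunit genes, Itgal signalled 7.38, 7.40 and 7.40 without Klf5 and 7.59, 7.63 and 7.52 in the control pools, and fell by 0.18 (adjusted p = 0.0317 with limma). Leaving out control replicate 3 kept this call, and leaving out any other array ended it (−0.19 to −0.16, adjusted p = 0.0728 to 0.113). Itgam fell by 0.37 (adjusted p = 0.0285), a call kept without Klf5-deleted replicate 1 or 2 and lost on leaving out any other array (adjusted p = 0.0643 to 0.0872). Itgae, the other alpha partner of ITGB7, was at 0.04 (95% interval −0.11 to 0.19), and Itgax and Itgad were at −0.11 and −0.10 and did not pass. All these alpha subunit genes lay below the median over genes, Itgae and Itgax lowest (percentiles 17.8 and 18.1). Dim signals thus limit their small differences too. The ligand genes Vcam1 and Madcam1, bound by ITGA4 integrins, were at 0.26 (adjusted p = 0.158) and −0.05.

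ITGB6 and ITGB8 integrins are known to activate latent TGF-beta. The forms of TGF-beta differ, and whether these integrins act on each form was not tested, so the values below are of gene expression only. Tgfb2 had signals of 10.67, 10.94 and 10.70 in the deleted pools, against 10.23, 10.24 and 10.11 in control pools, and rose 1.49-fold (difference 0.58, SE 0.08, adjusted p = 0.00317). Tgfb3 read 11.10, 10.76 and 10.76 against 10.42, 10.45 and 10.30 and rose 1.40-fold (adjusted p = 0.0151), a call lost without control replicate 3 (0.44, adjusted p = 0.0598). Tgfb1 was at −0.08 (95% interval −0.23 to 0.07).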
